A study of Mus musculus with 16 samples.

Results

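Marcks, Marcksl1, Gap43 and Basp1 encode acidic, natively unfolded proteins that sit on the inner face of the plasma membrane and, in growing neurons, at the growth cone. The 4 genes were listed by name as a group of growth-associated substrates of protein kinase C, and all 4 were found among the 16934 genes of the deposited counts and among the 13139 that could be tested. The group was chosen by a measured value: Marcks was already known to be higher in loaded neurons with microglia than in loaded neurons alone, so every value of the 4 genes that sets those groups against each other, or averages or subtracts over that pair, is given as a description without a test.

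The libraries came from primary cortical neurons of C57BL/6 mouse embryos of embryonic day 15 to 16, kept for 14 days in culture, and were made with a kit that primes at the poly(A) tail and reads 3′ ends. The 4 groups held 4 libraries each: neurons loaded with 0.1 µM fluorescently labelled α-synuclein fibrils for 16 h and then kept with microglia for 6 h, neurons loaded in the same way and kept alone, untreated neurons kept with microglia for 6 h, and untreated neurons kept alone. By its title the series concerns the care of neurons by microglia through thin membrane bridges, and α-synuclein is the protein that aggregates in Parkinson's disease. No label states the step that separated the neurons from the microglia before RNA was taken, the number of embryos pooled, or whether the 4 libraries of a group are separate cultures. A p-value here therefore measures library spread that may be partly technical.

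Marcks and Marcksl1 hold a basic stretch, the effector domain, that binds acidic lipids such as PIP2, actin and calmodulin. Phosphorylation of its serines by protein kinase C, or binding of calmodulin, releases the protein from the membrane. Gap43, a marker of axon growth and regeneration, binds calmodulin through a motif that protein kinase C phosphorylates, and Basp1 gathers PIP2 at the membrane in a similar way. In the brain Gap43 is mainly neuronal, whereas Marcks transcripts occur in neurons, glia and microglia.

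The first 10 codons are printed for all 4 members because they carry the sites by which each protein is anchored to the membrane. They were read 5′ to 3′ on the coding strand from the GENCODE M21 transcripts of build GRCm38. Capitals mark the codon for glycine at position 2, the acceptor of myristate, or codons for cysteine, the acceptors of palmitate in Gap43 at positions 3 and 4.
Marcks: atgGGTgcccagttctccaagaccgcagcg
Marcksl1: atgGGCagccagagctctaaggctccccgg
Gap43: atgctgTGCTGTatgagaagaaccaaacag
Basp1: atgGGAggcaagctgagcaagaagaagaag
Marcks, Marcksl1 and Basp1 share the glycine codon, and Gap43 has the pair of cysteine codons instead.

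Marcks and Marcksl1 are paralogs, and the 75 bases of coding sequence that they share best in frame were sought to show how far their transcripts differ. The best window held 55 identical bases, or 73.3%. It covers codons 146 to 170 of Marcks and codons 87 to 111 of Marcksl1, counted from the start codon, and capitals mark the bases that differ.
Marcks: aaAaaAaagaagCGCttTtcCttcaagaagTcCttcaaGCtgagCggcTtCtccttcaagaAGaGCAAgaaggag
Marcksl1: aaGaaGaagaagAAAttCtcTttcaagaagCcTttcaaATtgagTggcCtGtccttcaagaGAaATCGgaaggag
Of its 25 codons, 11 code for lysine, 5 for serine and 5 for phenylalanine in Marcks, against 10, 3 and 4 in Marcksl1. That makeup, rich in lysine with serines between, is the one known for the effector domain.

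In the same annotation Marcks lies on the minus strand at chr10:37133375-37138920, Marcksl1 on the plus strand at chr4:129513581-129515985, Gap43 on the minus strand at chr16:42248442-42340651 and Basp1 on the minus strand at chr15:25363277-25413764. The coding transcripts have 2 exons in Marcks, Marcksl1 and Basp1 and 3 in Gap43. No other annotated gene overlaps Marcks, Marcksl1 or Basp1, and Gap43 hosts the microRNA gene Mir6540 on its own strand. The processed pseudogene Marcksl1-ps4 has a row of its own in the counts and was at 0 in all 16 libraries. How the authors' counting treated reads that fit several places is not given in the sources used here.

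Total counts were 6511516 to 13986374 per library, and the members had 395 to 31769 counts in any library. Error from the sampling of reads is therefore small beside the spread between libraries. Read counts do not bound the loss of molecules before sequencing. Within groups the correlation of log2 CPM (counts scaled to a common library total) over genes was 0.645 to 0.757, and between 41 and 666 genes per library were at 0 where the other libraries averaged at least 100 counts. The 10 neuronal markers summed to 970 to 2715 CPM in the 8 co-cultures and to 1094 to 6827 CPM in the 8 libraries of neurons alone. Microglial markers were at 1431 CPM in replicate 1 of the loaded and 732 CPM in replicate 1 of the untreated co-cultures, at 13.7 to 79.8 CPM in the other 6 co-cultures and at no more than 41.0 CPM in neurons alone. Of the 14 microglial markers, Tmem119 and P2ry12 were at 0 in all 16 libraries.

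In all 8 co-cultures Marcks stood above its highest level among the 8 cultures of neurons alone. In loaded neurons with microglia it was at 1311, 2380, 2383 and 1366 CPM in replicates 1 to 4, against 421, 742, 428 and 541 CPM in loaded neurons alone. In untreated neurons with microglia it was at 2060, 1629, 1323 and 999 CPM, against 658, 700, 360 and 560 CPM in untreated neurons alone. The lowest co-culture, at 999 CPM, thus stood above the highest library of neurons alone, at 742 CPM. Of all tested genes, 0.381% were higher in every co-culture than in every library of neurons alone, a contrast that includes the values by which Marcks was chosen.

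The group means of Marcks were 1860 ± 603 CPM in loaded neurons with microglia, 533 ± 150 CPM in loaded neurons alone, 1503 ± 452 CPM in untreated neurons with microglia and 569 ± 151 CPM in untreated neurons alone (SD, n = 4 each). Ordered by level, the loaded and untreated co-cultures overlapped each other, as did the untreated and loaded neurons alone, and the gap lay between these pairs. Highest and lowest libraries of a group differed by 1.76-fold to 2.06-fold, beside fitted differences with microglia of 3.49-fold in loaded and 2.64-fold in untreated neurons.

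**Figure D1:**
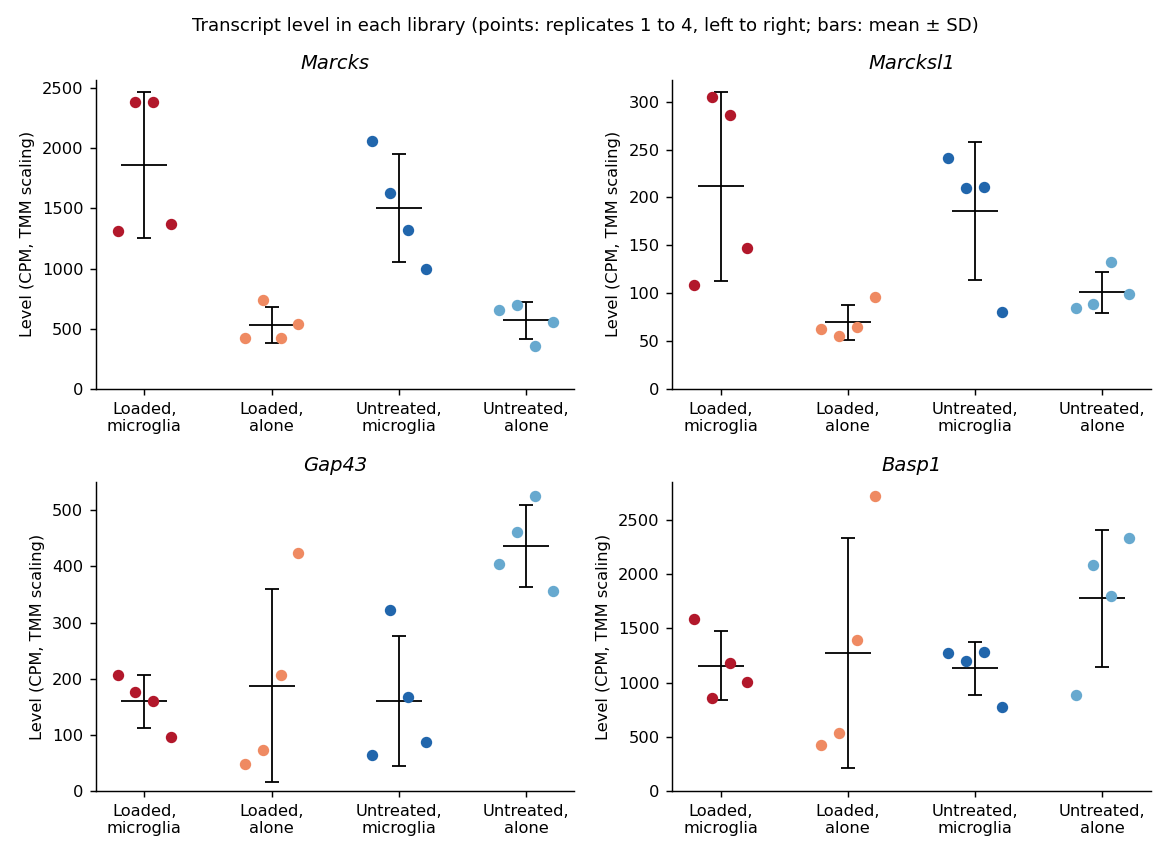
Level in CPM (linear axis from 0) of Marcks, Marcksl1, Gap43 and Basp1 in each of the 16 libraries, with replicates 1 to 4 from left to right in each group and bars for the mean and SD of 4 libraries. Marcks is at 999 to 2383 CPM in the co-cultures, above its 360 to 742 CPM in neurons alone, while Gap43 and Basp1 spread widely among loaded neurons alone.

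With microglia, the fitted log2 change of Marcks was 1.80 ± 0.32 (SE) in loaded neurons, a 3.49-fold higher level. In untreated neurons it was 1.40 ± 0.32 (SE), a 2.64-fold higher level that did not pass edgeR's quasi-likelihood test over all genes (adjusted p = 0.0828). The value named for the choice of Marcks came from the loaded libraries, but the members were chosen with earlier results of these data known. In the comparison of untreated neurons 0.122% of tested genes passed, 16 of 13139, and Marcks had rank 29 by p. Its groups did not overlap there, as was so for 3.77% of tested genes in that direction. The adjusted p was 0.0562 to 0.289 when single libraries were left out, and fell below 0.05 with DESeq2 (0.000463), limma-voom (0.0223), library totals as the scaling (0.0289) and no filter (0.0457).

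The change in loaded neurons minus that in untreated neurons was 0.40 ± 0.44 (SE). Averaged over fibril state the log2 change was 1.60 ± 0.22 (SE). Without replicate 1 of both co-culture groups, the libraries that hold most microglial transcripts, the log2 change was 1.94 in loaded and 1.22 in untreated neurons.

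Marcksl1, the smaller paralog, followed the same direction with more spread. In loaded neurons with microglia it was at 109, 305, 286 and 147 CPM in replicates 1 to 4, against 63.2, 54.9, 64.7 and 95.6 CPM in loaded neurons alone. In untreated neurons with microglia it was at 241, 210, 211 and 80.2 CPM, against 84.6, 89.2, 132 and 98.7 CPM in untreated neurons alone. The loaded groups did not overlap, as was so for 3.41% of tested genes in that direction, whereas replicate 4 of the untreated co-cultures lay below all 4 untreated libraries of neurons alone.

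The group means of Marcksl1 were 212 ± 98.4 CPM in loaded neurons with microglia, 69.6 ± 17.9 CPM in loaded neurons alone, 186 ± 71.7 CPM in untreated neurons with microglia and 101 ± 21.5 CPM in untreated neurons alone (SD, n = 4 each). Ordered by level, each group overlapped its neighbour. The fitted log2 change with microglia was 1.60 ± 0.39 (SE) in loaded neurons and 0.88 ± 0.38 (SE) in untreated neurons. The change in untreated neurons did not pass (edgeR, adjusted p = 0.498). The difference between these changes was 0.73 ± 0.54 (SE). Averaged over fibril state the log2 change was 1.24 ± 0.27 (SE).

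Within a library, the count of Marcks over that of Marcksl1 does not depend on any scaling between libraries. The log2 ratio was 3.21 ± 0.28 in loaded neurons with microglia, 2.93 ± 0.56 in loaded neurons alone, 3.08 ± 0.41 in untreated neurons with microglia and 2.47 ± 0.72 in untreated neurons alone (SD, n = 4 each). The ranges with and without microglia overlapped in both loaded and untreated neurons.

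Gap43 was highest in untreated neurons alone, where its 4 libraries were also closest to each other. It was at 208, 176, 160 and 96.4 CPM in loaded neurons with microglia and at 49.1, 73.5, 207 and 423 CPM in loaded neurons alone, replicates 1 to 4. In untreated neurons it was at 64.0, 322, 168 and 88.6 CPM with microglia, against 405, 461, 525 and 357 CPM alone. Each of the 4 untreated co-cultures lay below each untreated library of neurons alone, and groups apart in that direction were found for 3.81% of tested genes. Among loaded neurons the groups overlapped completely, since loaded neurons alone held both the lowest and the highest of the 8 libraries.

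The group means of Gap43 were 160 ± 46.8 CPM in loaded neurons with microglia, 188 ± 171 CPM in loaded neurons alone, 161 ± 116 CPM in untreated neurons with microglia and 437 ± 72.4 CPM in untreated neurons alone (SD, n = 4 each). The first 3 groups did not differ beyond their spread. With microglia the fitted log2 change was -0.23 ± 0.56 (SE) in loaded neurons and -1.44 ± 0.57 (SE) in untreated neurons, and the second did not pass (edgeR, adjusted p = 0.47). Without replicate 4 of loaded neurons alone the change with microglia in loaded neurons was 0.54, and with limma-voom it was 0.16. With fibrils it was -1.21 ± 0.56 (SE) in neurons alone, which did not pass (edgeR, adjusted p = 0.707), and -0.01 ± 0.55 (SE) in co-cultures, with a 95% interval of -1.17 to 1.16 (edgeR, adjusted p = 1.00). The comparison of microglia in untreated neurons and that of fibrils in neurons alone share the untreated libraries of neurons alone, so these values are not separate observations.

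The level of neuronal transcripts also differed between libraries. In loaded neurons alone the 10 neuronal markers summed to 1507, 1094, 3164 and 6827 CPM in replicates 1 to 4, where Gap43 was at 49.1, 73.5, 207 and 423 CPM. Over groups, the marker sum was 1115 to 1722 CPM in loaded neurons with microglia, 1094 to 6827 CPM in loaded neurons alone, 970 to 2715 CPM in untreated neurons with microglia and 2632 to 6791 CPM in untreated neurons alone. All 10 markers were in the counts, of which 8 were detected in every library and Rbfox3 and Stmn2 were at 0 in 1 library each. The part of this difference in the values of Gap43 and Basp1 was not tested, and in bulk libraries fewer neurons and less RNA per neuron cannot be told apart.

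Basp1 resembled Gap43 in its wide spread among loaded neurons alone and passed no test. It was at 1588, 863, 1177 and 1003 CPM in loaded neurons with microglia, against 431, 536, 1392 and 2720 CPM in loaded neurons alone. In untreated neurons it was at 1269, 1197, 1286 and 775 CPM with microglia, against 888, 2082, 1798 and 2332 CPM alone. The groups overlapped in every comparison. The lowest and highest loaded libraries of neurons alone differed by 6.31-fold for Basp1 and by 8.62-fold for Gap43, with the same libraries, replicates 1 and 4, at the ends.

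The group means of Basp1 were 1158 ± 314 CPM in loaded neurons with microglia, 1270 ± 1058 CPM in loaded neurons alone, 1132 ± 241 CPM in untreated neurons with microglia and 1775 ± 630 CPM in untreated neurons alone (SD, n = 4 each), and no neighbours in that order differed beyond their spread. With microglia the log2 change was -0.13 ± 0.44 (SE) in loaded neurons, where it turned to 0.17 with limma-voom and 0.026 with library totals, and -0.65 ± 0.44 (SE) in untreated neurons (edgeR, adjusted p = 0.804 for the second). With fibrils it was -0.48 ± 0.44 (SE) in neurons alone, with a 95% interval of -1.41 to 0.44, and 0.03 ± 0.44 (SE) in co-cultures, with an interval of -0.89 to 0.96 (edgeR, adjusted p = 1.00 for both). Without replicate 4 of loaded neurons alone the change with fibrils in neurons alone was -1.17 and that with microglia in loaded neurons was 0.56.

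**Figure D2:**
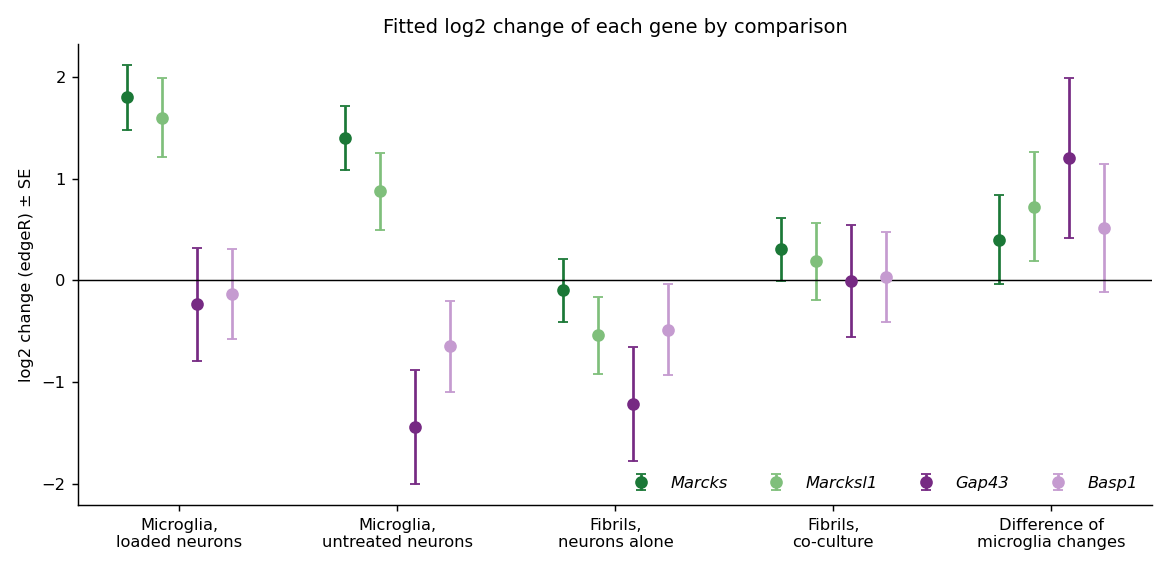
Fitted log2 change (points) with its standard error (bars) of each gene for microglia in loaded and in untreated neurons, fibrils in neurons alone and in co-culture, and the difference between the changes with microglia. Marcks and Marcksl1 lie above 0 in both comparisons of microglia (1.80 and 1.60 in loaded neurons, 1.40 and 0.88 in untreated neurons), while Gap43 and Basp1 lie below 0 in untreated neurons (-1.44 and -0.65) and near 0 in loaded neurons, where their sign turns with the fit.

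Fibrils were not followed by a detectable change of Marcks or Marcksl1. The log2 change of Marcks was -0.09 ± 0.31 (SE) in neurons alone, with a 95% interval of -0.73 to 0.55, and 0.31 ± 0.31 (SE) in co-cultures, with an interval of -0.33 to 0.95 (edgeR, adjusted p = 1.00 for both). That of Marcksl1 was -0.54 ± 0.38 (SE) in neurons alone, with an interval of -1.33 to 0.25 (edgeR, adjusted p = 0.968), and 0.19 ± 0.38 (SE) in co-cultures, with an interval of -0.60 to 0.97 (edgeR, adjusted p = 1.00). For none of the 4 members were the groups with and without fibrils apart, as was so for 4.24% of tested genes in neurons alone and 1.94% in co-cultures, and 0 of 13139 genes (0%) passed edgeR's test in either fibril comparison. At an unadjusted p under 0.05 there were 909 genes in neurons alone and 483 in co-cultures, and DESeq2 called 173 and 130 genes.

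The count of Marcks over that of Gap43 within a library separated the groups of untreated neurons and not those of loaded neurons. The log2 ratio was 2.66, 3.76, 3.90 and 3.82 in loaded neurons with microglia, against 3.10, 3.34, 1.05 and 0.35 in loaded neurons alone. In untreated neurons it was 5.01, 2.34, 2.97 and 3.50 with microglia, against 0.70, 0.60, -0.54 and 0.65 alone. The untreated groups did not overlap, while replicates 1 and 2 of loaded neurons alone, the libraries low in neuronal markers, lay within the range of the loaded co-cultures. The count of Gap43 over that of Basp1 had log2 ratios of -2.87 ± 0.45 in loaded neurons with microglia, -2.86 ± 0.20 in loaded neurons alone, -3.07 ± 0.99 in untreated neurons with microglia and -1.95 ± 0.66 in untreated neurons alone (SD, n = 4 each). Loaded neurons alone kept the ratio of Gap43 to Basp1 between -3.13 and -2.68 although both genes varied more than 6-fold there.

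**Figure D3:**
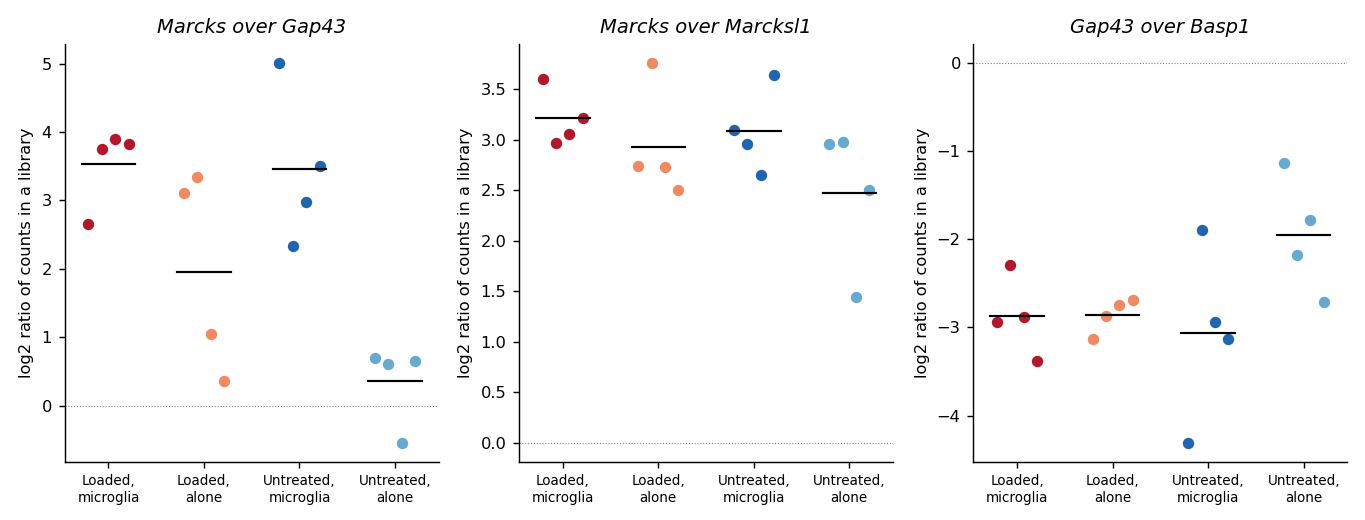
Log2 ratio of raw counts within each library (vertical axis) for Marcks over Gap43, Marcks over Marcksl1 and Gap43 over Basp1, with points for replicates 1 to 4 and a line for the mean of each group. Marcks over Gap43 is 2.34 to 5.01 in untreated neurons with microglia and -0.54 to 0.70 in untreated neurons alone, while Marcks over Marcksl1 overlaps between all groups.

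As deviations of log2 CPM from the group means over the 16 libraries, Marcks and Marcksl1 had a Pearson correlation of 0.49 and Gap43 and Basp1 one of 0.72. Marcks had a correlation of -0.03 with Gap43 and of -0.06 with Basp1, and Marcksl1 one of 0.32 and 0.30. These are descriptions without a test, since the libraries share their scaling and their mix of cells.

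The genes most like each member over the 16 libraries were sought among 6362 others with a mean log2 CPM above 4, with the correlation of log2 CPM as the measure, and are given without a test. Those most like Marcks were Cacng4, an AMPA receptor auxiliary subunit (r = 0.92), Lhfpl3, a gene of oligodendrocyte precursors (r = 0.90), Hnrnpa3, an RNA-binding protein (r = 0.90), the tetraspanin Cd9 (r = 0.86) and the splicing protein Srek1 (r = 0.86). Within groups their correlations with Marcks were 0.47 to 0.64, so much of the likeness came from the group means. Srek1 and Hnrnpa3 were also among the closest to Marcksl1 (r = 0.86 and 0.85), with the membrane protein Plppr5 (r = 0.87), Rbbp6 (r = 0.84) and Sox11, a transcription factor of immature neurons (r = 0.83).

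Those most like Gap43 were the sodium channel gene Scn2a (r = 0.90), the potassium channel gene Kcnq3 (r = 0.89), Map7d2 (r = 0.88), Tcaf1 (r = 0.88) and Ackr1 (r = 0.87), with 0.80 to 0.85 within groups. For Basp1 they were Tenm3, a teneurin adhesion molecule (r = 0.93), Arhgdig (r = 0.92), Brinp1 (r = 0.92), the kinase gene Prkcb (r = 0.91) and Septin3 (r = 0.89), with 0.88 to 0.93 within groups. Prkcb encodes protein kinase C beta, an isoform of the kinase that the group is named for. The part of the level of neuronal transcripts in these likenesses was not tested.

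Transcripts of the oligodendrocyte lineage were, like Marcks, higher in both groups of co-cultures than in neurons alone. The 12 markers, all in the counts and none at 0 in any library, summed to 6104 to 9871 CPM in loaded neurons with microglia and 1491 to 3084 CPM in loaded neurons alone, and to 4194 to 8321 CPM in untreated neurons with microglia and 1114 to 2156 CPM in untreated neurons alone. Markers of dividing cells, 9 of 9 in the counts, summed to 562 to 2094 CPM in the 8 co-cultures and 243 to 966 CPM in neurons alone. Astrocyte markers, 10 of 10, summed to 997 to 6753 CPM in co-cultures and 2403 to 7838 CPM in neurons alone. Marcks was at 1311 CPM in the loaded and 2060 CPM in the untreated co-culture with 1431 and 732 CPM of microglial markers, and at 999 to 2383 CPM in the 6 co-cultures with 13.7 to 79.8 CPM. The part of any of these cell types in the values of Marcks and Marcksl1 was not tested.

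**Figure D4:**
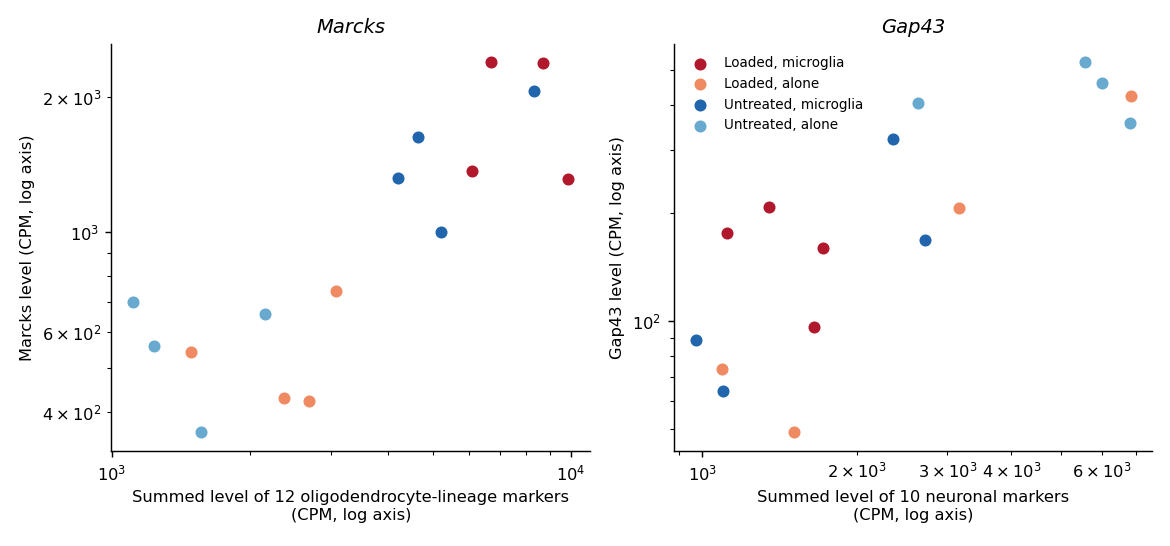
Marcks against the summed level of 12 oligodendrocyte-lineage markers, and Gap43 against that of 10 neuronal markers, in each library (CPM, log axes, 1 point per library, coloured by group). The 8 co-cultures lie at 4194 CPM or more of lineage markers and at 999 CPM or more of Marcks. The 5 libraries with Gap43 at 357 CPM or more lie at 2632 CPM or more of neuronal markers. So do replicate 3 of loaded neurons alone (3164 CPM, Gap43 at 207 CPM) and replicate 3 of untreated neurons with microglia (2715 CPM, Gap43 at 168 CPM).

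Around these proteins, 112 further genes of their pathway were listed in 8 sets, of which 111 were in the counts and 109 were tested. The lists were chosen with earlier results of these data known, so the tests of their genes are not independent of that choice. Averaged over fibril state, 6 of the 109 passed edgeR's test between co-cultures and neurons alone, 1 up and 5 down, beside 2.19% of all tested genes. Of the 109, 34 were higher and 75 lower, against 6385 higher and 6754 lower of all 13139 tested genes. Calls over all genes split into 160 higher and 128 lower, and into 339 and 83 with library totals as the scaling, which set the median log2 change of all genes to 0.18. The median log2 change of the 109 was -0.30, against -0.03 over all tested genes. In the separate comparisons of microglia and of fibrils, none of the 109 passed.

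No isoform of protein kinase C passed the test. Of 8 tested, 4 were higher and 4 lower in co-cultures, none called, with a median log2 change of -0.09. Prkcb was at 729 ± 144 CPM in loaded neurons with microglia and 597 ± 402 CPM in loaded neurons alone, and at 632 ± 133 CPM in untreated neurons with microglia and 1109 ± 331 CPM in untreated neurons alone (SD, n = 4 each). Prkce, the epsilon isoform, had an averaged log2 change of -1.32 ± 0.44 (SE; edgeR, adjusted p = 0.127).

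Genes of the set that joins calmodulins, substrates of protein kinase C and related proteins were mostly lower in co-cultures. Of 16 tested, 13 were lower and 3 of them passed, and 3 were higher and 1 passed. Nrgn, neurogranin, which binds calmodulin through a motif like that of Gap43, fell to 341 ± 198 CPM in loaded neurons with microglia, against 2905 ± 1581 CPM in loaded neurons alone, and to 616 ± 524 CPM in untreated neurons with microglia, against 5499 ± 1032 CPM in untreated neurons alone (SD, n = 4 each). Its averaged log2 change was -3.12 ± 0.48 (SE; edgeR, adjusted p = 0.00387). The calmodulin gene Calm3 fell by 0.92 on the log2 scale (edgeR, adjusted p = 0.018). Ppp1r14b, a phosphatase inhibitor that protein kinase C activates, rose by 1.38 ± 0.35 (SE; edgeR, adjusted p = 0.039).

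Among phosphatases, 7 of 9 were lower in co-cultures and Ppp3ca, the catalytic subunit of calcineurin that also removes phosphate from Gap43, fell by 1.15 on the log2 scale (edgeR, adjusted p = 0.0123). Its partner Ppp3r1, the regulatory subunit, had a log2 change of -1.29 ± 0.34 (SE; edgeR, adjusted p = 0.0527). Among 25 growth cone and axon genes, 19 were lower and only Stmn3, a stathmin that destabilises microtubules, passed, with a log2 change of -1.67 ± 0.34 (SE; edgeR, adjusted p = 0.0114). Tmsb4x, an actin-binding thymosin, and Ncam1, the neural cell adhesion molecule, the most abundant of that set, had averaged log2 changes of 0.50 ± 0.37 and -0.02 ± 0.25 (SE; edgeR, adjusted p = 0.569 and 0.994). The sums of neuronal markers, given by group with Gap43, had a median of 1500 CPM in the 8 co-cultures and 4359 CPM in the 8 libraries of neurons alone. Among loaded neurons the sums with and without microglia overlapped. The part of those markers in the genes that fell was not tested.

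No gene was called among the enzymes of PIP2 metabolism (17 tested, median log2 change -0.45), the enzymes that attach or remove myristate and palmitate (14 tested, median -0.18), the transcription factors of axon regeneration (12 tested, median -0.55) or the RNA-binding proteins (8 tested, median 0.20). Nmt1, which attaches myristate to Marcks, Marcksl1 and Basp1, had an averaged log2 change of -0.09 ± 0.30, and Metap2, which removes the methionine before that glycine, of 0.42 ± 0.21 (SE; edgeR, adjusted p = 0.947 and 0.309). Synj1, a phosphatase that breaks down PIP2, and Pip5k1a, a kinase that makes it, had changes of -0.45 ± 0.31 and 0.15 ± 0.23 (SE; edgeR, adjusted p = 0.503 and 0.842). The most abundant factors of regeneration, Klf9 and Stat3, had changes of -1.08 ± 0.38 and -0.03 ± 0.26, and the RNA-binding proteins Ncl and Hnrnpc of 0.45 ± 0.18 and 0.23 ± 0.20 (SE; edgeR, adjusted p = 0.153, 0.986, 0.206 and 0.645). Between loaded and untreated cultures none of the 109 passed, with 42 higher and 67 lower and a median of -0.17, against -0.05 over all tested genes. Of all tested genes 46.6% were higher there.

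**Figure D5:**
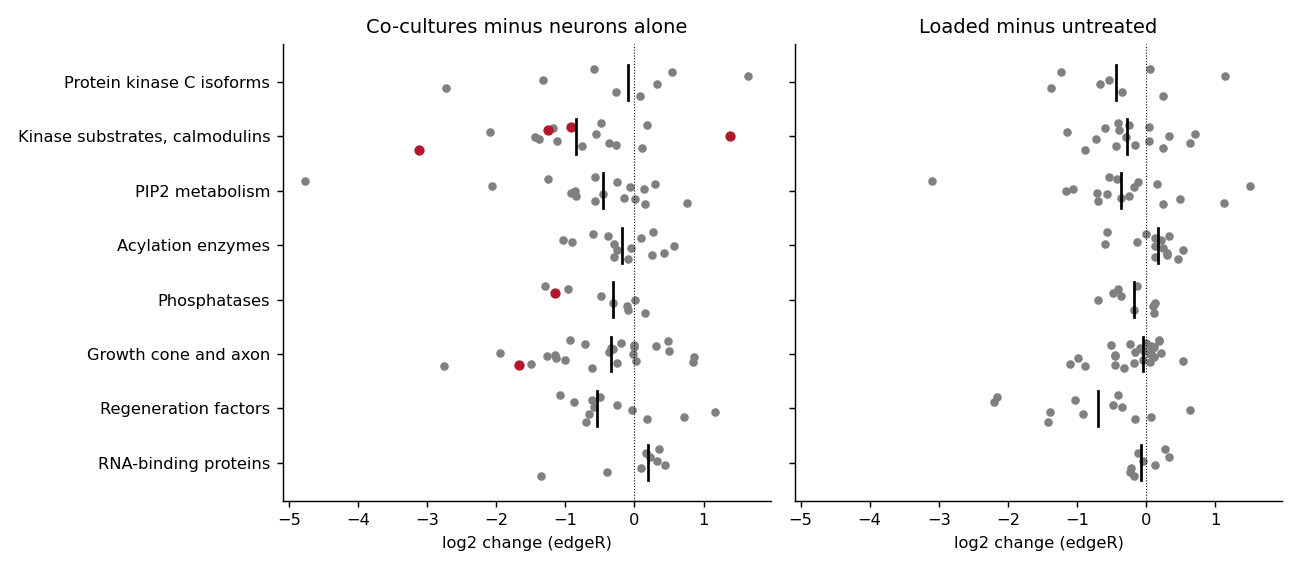
Averaged log2 change of each tested gene (points) of the 8 pathway sets between co-cultures and neurons alone (left) and between loaded and untreated cultures (right), with a black line at each set's median and genes past the test in red. The red points on the left include Nrgn, Calm3, Ppp3ca and Stmn3 below 0 and Ppp1r14b above 0, and there are none on the right.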

How the data were processed

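The values are raw counts for 16 libraries, deposited by the authors under gene symbols and not normalized. The kit was QuantSeq FWD, per the labels' protocols, which reads the 3′ end, so a longer transcript does not gather more counts. STAR, Partek, DESeq2 and the build mm10 are named, without versions, per the submitters' processing notes, and the counting tool, strand setting, annotation and use of molecular identifiers are not given in the sources used here. A normalized table, also deposited, was left aside.

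Groups were taken from the treatment label. Replicates are numbered in the order of the library codes in the titles. The serial numbers that end these codes run in sets, each with a library of every group, and the sets match the replicate numbers. No label says what a set shares, such as a culture or day. Libraries were not treated as paired in the main fit, and the replicate number was a block in an alternative. Counts of libraries in the same group differed by a chi-square of 67.5 to 253 per degree of freedom, far above sampling noise, and each was kept as its own sample.

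Counts were fitted in R 4.3.3 with edgeR 4.0.16 (robust quasi-likelihood test, 1 mean per group, all 16 libraries, TMM scaling, filterByExpr with a minimum count of 10 and a minimum total of 15), leaving 13139 genes. A gene was called where its p, adjusted by Benjamini-Hochberg over the tested genes of a contrast, was under 0.05. CPM use the TMM scaling, and log2 CPM a prior count of 2. The alternatives were DESeq2 1.42.0, limma-voom (limma 3.58.1), other scalings, no filter, a replicate block and left-out libraries. The tests were also run on simulated counts with set changes, drawn without a varying mix of cells, which does not check them under such a mix. Codons were read with Biopython 1.88, and matplotlib 3.10.9 drew the plots.

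The members and lists were chosen with earlier results of these data known. Named beyond the members are called genes of each pathway list (at most 6) and its 2 most abundant, and the 5 genes most like each member, with predicted gene models skipped. A result within this rule is not reported here. Symbols matched the GENCODE M21 annotation for 96.4% of genes.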

Additional observations from a re-analysis of the deposited data

How the results depend on the processing

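With 1 library left out, the log2 change with microglia in loaded neurons was 1.66 to 2.01 for Marcks, -0.54 to 0.54 for Gap43 and -0.41 to 0.56 for Basp1. With fibrils it was -0.28 to 0.024 for Marcks in neurons alone, and -0.061 to 0.39 for Marcksl1, -0.27 to 0.58 for Gap43 and -0.17 to 0.15 for Basp1 in co-cultures. The number of called genes was then 1 to 27 for microglia in loaded neurons, 0 to 39 in untreated neurons and 158 to 333 averaged, and 0 to 7 for fibrils in neurons alone and 0 to 1 averaged. Without replicate 1 of both co-culture groups the counts were 0 for microglia in untreated neurons and 152 averaged, and the change with fibrils was -0.11 for Basp1 in co-cultures and 0.0062 for Marcksl1 averaged. For microglia in untreated neurons Marcks passed with DESeq2 (1.41), limma-voom (1.40), library totals (1.62) and no filter (1.42), and for microglia in loaded neurons Marcksl1 had 1.58 with DESeq2. For microglia in loaded neurons Gap43 turned to 0.16 with limma-voom, and Basp1 to 0.17 with limma-voom and 0.026 with library totals. For fibrils in co-cultures Gap43 turned to 0.018 with DESeq2, 0.27 with limma-voom and 0.022 with scaling factors that leave out Rn45s, and Basp1 to -0.015 with limma-voom and -0.055 with library totals.

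For microglia in loaded neurons, 15 calls became 492 with DESeq2, 40 with limma-voom, 31 with library totals and 26 with no filter. In untreated neurons 16 became 295, 92, 50 and 26 in the same order, and averaged 288 became 1094 with DESeq2 and 662 with limma-voom. DESeq2 called 173 genes for fibrils in neurons alone, 130 in co-cultures, 257 averaged and 187 for the difference between the changes with microglia. The causes were not tested. With the replicate number, and so the set of library codes, as a block, there were 42 calls for microglia in loaded and 38 in untreated neurons. Basp1 was then at 0.088 for microglia in loaded neurons and Gap43 at 0.17 for fibrils in co-cultures. Deviations from the group means correlated above 0.1 in 4 of 24 pairs with the same number (median 0.043) and 4 of 72 pairs with different numbers (median -0.013). A library correlated best with its own number in 22 of 48 cases, where 12 would be expected if numbers meant nothing. That is a hint of shared numbers, and the library codes fall into the same sets, but what a set shares is not stated.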
